A study of Mus musculus with 12 samples.

Results

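In TRAMP-C2 tumors, 7 genes of the caspase cascade and of its brake, the inhibitor of apoptosis proteins (IAPs), were followed across 4 treatments: Xaf1, Xiap, Birc2, Diablo, Casp8, Casp9 and Casp6. They were found among the 49315 genes of the count files by matching Ensembl identifiers to these mouse symbols, and all 7 were measured. TRAMP-C2 cells, an established line from a prostate tumor of a transgenic mouse, were placed under the skin of the right flank of male C57BL/6J mice aged 6 to 8 weeks. Established tumors were injected directly with 1 of 4 treatments and collected on day 6. They were divided in parts at collection, and RNA of unsorted tumor tissue was sequenced. The combination group (tumors 20L, 22 and 28LL) received 50 µg ADU-S100 on days 0, 2 and 4 and 10 µg cyto-IL-15 on days 0 and 4, the ADU-S100 group (tumors 17LL, 18R and 22LR) and the cyto-IL-15 group (tumors 9R, 13 and 20LL) received the same doses of 1 agent, and the HBSS group (tumors 19, 22R and 22LL) received 3 doses of 50 µl of the salt solution that served as vehicle. ADU-S100 is a synthetic cyclic dinucleotide that activates STING, an adaptor that leads to type I interferon production. Cyto-IL-15 is interleukin-15 carrying a lipid-bearing peptide that holds it to cell membranes.

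Apoptosis is carried out by caspases, proteases that are made as inactive precursors. Initiator caspases are activated on large complexes, Casp8 at ligand-bound death receptors and Casp9 on the Apaf1 apoptosome after mitochondria release cytochrome c. They set off the executioner caspases, a class that includes Casp6. XIAP binds and blocks some caspases, and the related protein encoded by Birc2 acts mainly as a ubiquitin ligase in tumor necrosis factor receptor signaling. DIABLO (also called Smac), once released from mitochondria, displaces IAPs from caspases. XAF1 was described in human cells as a partner that antagonizes XIAP, and its gene is induced by interferon. Much of this cascade is regulated on proteins, which RNA counts do not measure.

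Total counts were 48772204 to 103700199 per tumor, and a single tumor held between 978 and 15282 reads of any of the 7 genes. Levels of a gene across tumors are given in CPM, the reads of a gene scaled to a common library size, after TMM normalization over the 12 tumors. Each comparison was fitted with edgeR's quasi-likelihood test on its own 6 tumors, a log2 fold change is the group named first over the group named second, and a gene passed the test at an adjusted p under 0.05 over all tested genes. Each library is a separate tumor, and 3 tumors per group limit all tests. Tumors 13 and 28LL stood apart, as their median correlation with the other tumors was 0.874 and 0.859 over 14141 genes, against 0.959 to 0.974 for the other 10. Of the markers of the labelled tissue, the luminal prostate gene Pbsn was at 0 in 11 of 12 tumors and the prostate transcription factor gene Hoxb13 did not exceed 1.10 CPM. The epithelial genes Krt18 and Epcam were near 0 in most tumors (medians 0.151 and 0.435 CPM), with maxima of 5.92 CPM in tumor 13 and 11.9 CPM in tumor 28LL. Cdh1, another epithelial gene, was found in every tumor, at 2.81 to 23.0 CPM (median 6.40 CPM). The keratin gene Krt8 was at 83.6 CPM in cyto-IL-15 tumor 13, 145 CPM in HBSS tumor 22LL and 2.15 to 7.66 CPM in the other 10. Because RNA came from unsorted tumor tissue, fewer cells of a type and less RNA per cell cannot be told apart.

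Xaf1 was the gene of the set that changed. It was about 4-fold higher in ADU-S100-treated tumors than in HBSS-treated or cyto-IL-15-treated tumors, and passed the test in both comparisons. No other gene of the set passed in any of the 6 comparisons. The levels of Diablo were nearly flat across all tumors, while Xiap, Birc2, Casp8 and Casp9 each showed smaller shifts that separated some pairs of groups but did not pass the test.

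Sequences from windows at RefSeq start sites are shown first for the genes with a match to the interferon regulatory factor (IRF) core. This was done because Xaf1 is an interferon-induced gene and Casp8 turned out to share a stretch of sequence with it. All 7 genes had windows in the RefSeq promoter table (250 bases before to 50 after a start site, build GRCm38.p6). The IRF core was searched on both strands as AANNGAAA, which 23.9% of all 32851 windows hold. Among the 10 windows of the 7 genes, matches were found in a single window each of Xaf1, Casp8 and Birc2, not far from the share in all windows. None of the windows of Xiap, Diablo, Casp9 and Casp6 held a match. Longer elements of interferon signaling were searched as well. Both, the ISRE (GAAA, 2 bases of any kind and GAAA again, which contains the IRF core, in 3.44% of windows) and the GAS element (TTCNNNGAA, in 8.3%), were absent as letters from every window of the 7 genes. A match is a description of the letters and not a binding site. The Casp8 and Birc2 stretches below lie before start sites that are inside the gene spans given later. The Xaf1 stretch spans the start of its gene. The motifs were chosen after the expression values were known. The stretches below are written 5′ to 3′ along the gene's strand, with matches to the IRF core on either strand in capitals, from chr11:72301559-72301658 (plus strand), chr1:58802312-58802431 (plus strand) and chr9:7836807-7836866 (minus strand, the second of the Birc2 windows).
Xaf1: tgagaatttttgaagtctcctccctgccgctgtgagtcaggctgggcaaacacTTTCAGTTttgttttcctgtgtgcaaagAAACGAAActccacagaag
Casp8: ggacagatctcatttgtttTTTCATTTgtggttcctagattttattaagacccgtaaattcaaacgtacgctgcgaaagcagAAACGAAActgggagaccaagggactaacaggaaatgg
Birc2: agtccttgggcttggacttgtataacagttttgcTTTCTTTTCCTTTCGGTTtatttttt

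With the start site counted as 0, the Xaf1 matches lay at positions -17 to -10 and 11 to 18, and the Casp8 matches at -171 to -164 and -108 to -101. The Birc2 window held 3 overlapping matches between -26 and -9. The longest run shared by the Xaf1 and Casp8 windows was AGAAACGAAACT, 12 bases around their plus-strand match, and 6 of 32851 windows (0.0183%) held it. Besides Xaf1 and Casp8 these were the windows of Helz2, Ddx58, Oas3 and Fyco1. Ddx58 encodes the RNA sensor RIG-I, and Oas3 an oligoadenylate synthetase of antiviral defense. In ADU-S100-treated against HBSS-treated tumors the log2 fold changes were 2.57 (standard error 0.39, adjusted p = 0.0198 by edgeR) for Oas3, 0.77 (0.12, adjusted p = 0.0114) for Ddx58 and 0.60 (0.12, adjusted p = 0.0243) for Helz2, and they were 0.28 (0.13, adjusted p = 0.225) for Fyco1 and 0.29 (0.15, adjusted p = 0.282) for Casp8. These genes were singled out after the run was seen, so the values describe them only.

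Xaf1 encodes the XIAP-associated factor and lies at chr11:72301629-72313733 on the plus strand (GRCm38), with exons that no other annotated gene overlaps. It was measured at 35.5, 52.8 and 97.4 CPM in the combination tumors 20L, 22 and 28LL, at 83.1, 68.7 and 89.7 CPM in the ADU-S100 tumors 17LL, 18R and 22LR, at 20.1, 15.8 and 16.9 CPM in the cyto-IL-15 tumors 9R, 13 and 20LL, and at 20.8, 16.7 and 19.2 CPM in the HBSS tumors 19, 22R and 22LL. All 6 tumors that received ADU-S100, alone or with cyto-IL-15, lay above all 6 that did not, and combination tumors spanned a wider range than any other group.

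In ADU-S100-treated tumors Xaf1 rose to 80.5 ± 10.8 CPM, against 18.9 ± 2.09 CPM in HBSS-treated tumors (SD, n = 3 each). The log2 fold change was 2.11 (standard error 0.15, 4.32-fold, adjusted p = 0.000695 by edgeR), which ranked the gene 5 of 18911 by p. In this comparison 6.19% of all tested genes passed the test, and 1 of the 7 genes did. Without any 1 of the 6 tumors the log2 fold change of Xaf1 was 2.01 to 2.22 and it passed each time, but in a single fit of all 12 tumors, where 0 genes passed, its adjusted p was 0.0849 by edgeR.

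Against cyto-IL-15-treated tumors, which averaged 17.6 ± 2.26 CPM (SD, n = 3), the log2 fold change of Xaf1 in ADU-S100-treated tumors was 2.16 (standard error 0.18, 4.48-fold, adjusted p = 0.0319 by edgeR). Only 0.0855% of all tested genes passed there, 16 of 18708, and Xaf1 ranked 5 among them. The call was lost when any one of tumors 9R, 20LL, 17LL, 18R and 22LR was left out, with adjusted p between 0.124 and 0.265 by edgeR, and it was kept without tumor 13 (adjusted p = 0.00261). The fold change itself stayed between 2.10 and 2.28 on the log2 scale in these fits. The ADU-S100 tumors are the same in both comparisons, so the fold changes share them.

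In combination-treated tumors Xaf1 averaged 61.9 ± 31.9 CPM, against 18.9 ± 2.09 CPM in HBSS-treated tumors (SD, n = 3 each). The groups did not overlap, yet the log2 fold change of 1.74 (standard error 0.38) did not pass edgeR's test (adjusted p = 0.185, unadjusted p = 0.00303). The percentage of all genes that passed in this comparison was 0, with 3374 genes at an unadjusted p under 0.05. DESeq2 called 1392 genes in the same tumors, Xaf1 among them (log2 fold change 1.73, adjusted p = 0.00136). Tumor 28LL decided the edgeR call, since without it the log2 fold change was 1.25 and the adjusted p 0.0273. Against cyto-IL-15-treated tumors the log2 fold change reached 1.82 with a standard error of 0.40 (adjusted p = 0.785 by edgeR). There too 0% of genes passed, with 926 at an unadjusted p under 0.05, while DESeq2 called 111 genes and gave Xaf1 an adjusted p of 0.0226. Xaf1 was the only one of the 7 whose groups did not overlap in that comparison, which held for 12.8% of all tested genes.

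Between the combination and ADU-S100 alone, the difference in Xaf1 was within the spread of the tumors (log2 fold change -0.37, standard error 0.36, adjusted p = 0.886 by edgeR), and so was that between cyto-IL-15 and HBSS (-0.081, standard error 0.18, adjusted p = 0.944 by edgeR). In both comparisons 0% of all genes passed edgeR's test, with 802 and 706 genes at an unadjusted p under 0.05 and 4 and 117 genes called by DESeq2, none of them among the 7. A test of whether the effect of cyto-IL-15 differed with and without ADU-S100, fitted on 12 tumors, gave an interaction of -0.30 for Xaf1 (standard error 0.42, adjusted p = 1.00 by edgeR). For that test 0% of 20132 genes passed, with 461 at an unadjusted p under 0.05 and 0 called by DESeq2.

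**Figure D1:**
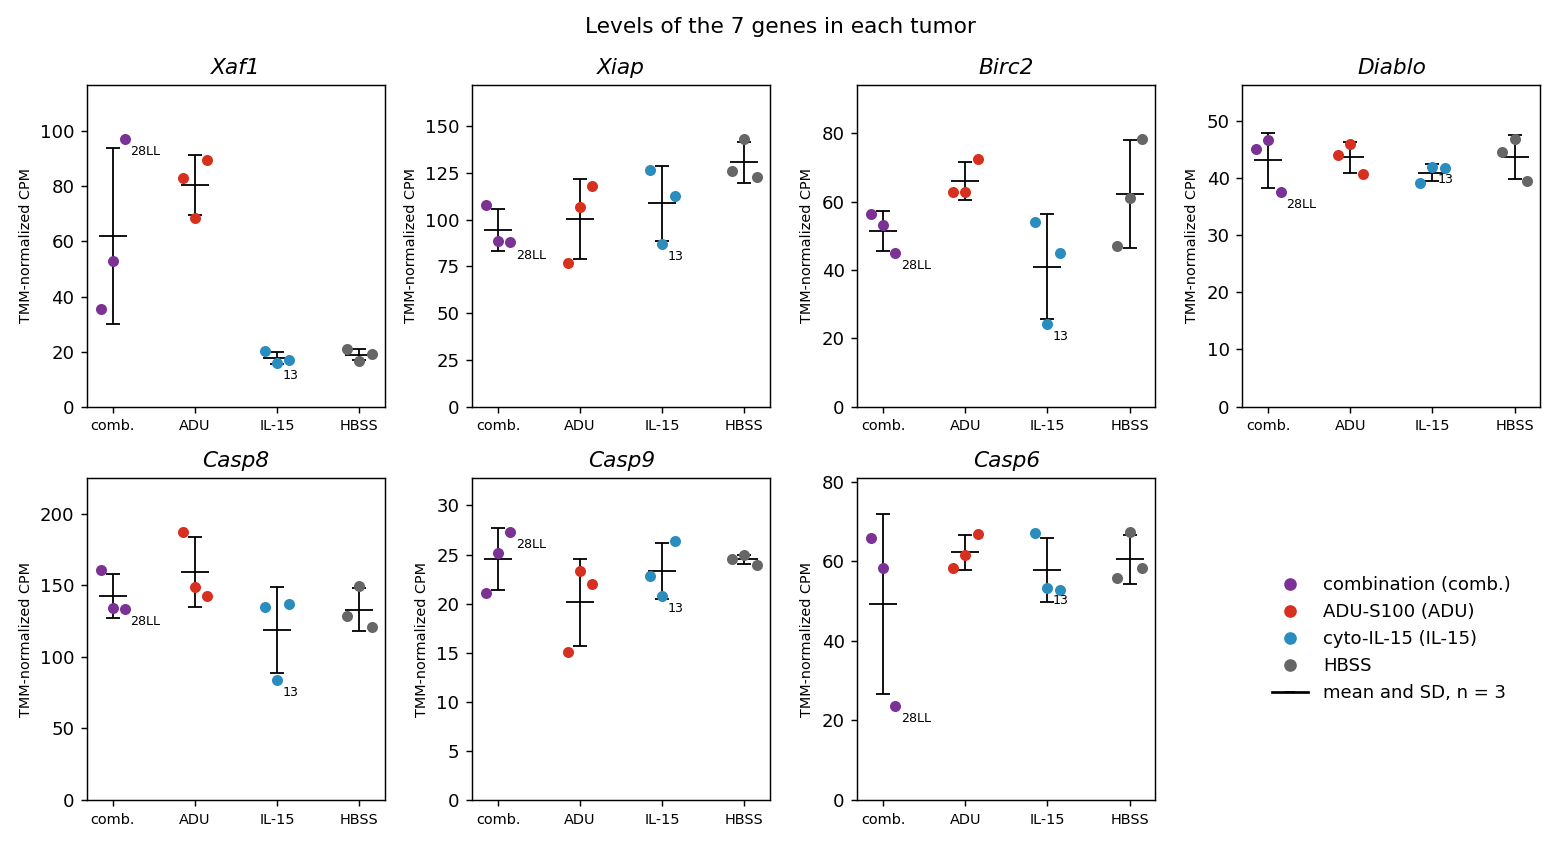
TMM-normalized CPM (vertical axes, starting at 0) of the 7 genes in each tumor (points), by group, with the mean and SD of 3 tumors as black bars and tumors 13 and 28LL named. For Xaf1 the 6 tumors given ADU-S100 or the combination, from 35.5 to 97.4 CPM, lie above the other 6, at 20.8 CPM or less, while Diablo stays between 37.6 and 46.9 CPM in all 12.

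Xaf1 moved with genes that interferon induces. Of 12 listed interferon-stimulated genes, 12 rose in ADU-S100-treated against HBSS-treated tumors (median log2 fold change 2.57, against 0.029 over all tested genes, of which 6.19% passed), and 9 of them passed edgeR's test without any 1 of the 6 tumors. Against cyto-IL-15-treated tumors 7 rose (median 3.10 over the 12, against -0.040 over all tested genes, of which 0.0855% passed). Those 7 passed again without tumor 13, and 0 of them passed when any one of the other 5 tumors was left out, with adjusted p up to 0.269 by edgeR and log2 fold changes of at least 2.23. For the combination against HBSS 0 of the 12 passed, as did 0% of all tested genes. All 12 log2 fold changes were above 0 there (median 2.49, against 0.0092 over all tested genes). For cyto-IL-15 against HBSS 0 passed, as did 0% of all tested genes, and 11 of the 12 were below 0. The median was -0.54, against 0.040 over all tested genes, and Xaf1 was at -0.081. In that comparison 3 of the 12 were lower without overlap, while 10.6% of all tested genes were without overlap in either direction. At an unadjusted p under 0.05 by edgeR were 3 of the 12 and 3.8% of all tested genes. The mean level of the 12, as log2(CPM + 0.5), was 5.25, 6.00 and 7.69 in the combination tumors 20L, 22 and 28LL, 6.36, 6.397 and 6.97 in the ADU-S100 tumors 17LL, 18R and 22LR, 3.96, 3.47 and 3.94 in the cyto-IL-15 tumors 9R, 13 and 20LL, and 4.57, 3.93 and 4.47 in the HBSS tumors 19, 22R and 22LL. Within the combination group, tumors ranked 20L, 22, 28LL by this mean and by Xaf1 alike. Among 14116 genes, the 5 whose levels were most like those of Xaf1 over the 12 tumors were Isg15, a ubiquitin-like modifier (Pearson's r = 0.984), Ifi44 (0.982), Rtp4 (0.981), Ifit1 (0.981) and Ifi35 (0.980). The tumors share their groups in all these genes, so the coefficients describe the pattern and carry no test. All of the 5 but Ifi35 are in the list of 12, which was chosen with earlier results of these data known.

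**Figure D2:**
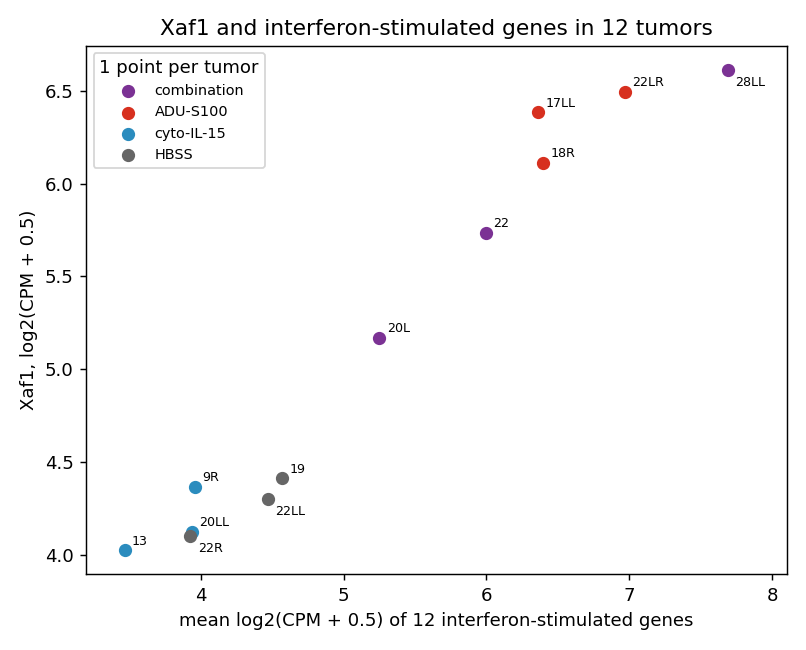
Level of Xaf1 (vertical axis) against the mean level of 12 interferon-stimulated genes (horizontal axis), both as log2(CPM + 0.5), with 1 named point per tumor colored by group. Tumors given ADU-S100 or the combination lie to the upper right, with tumor 28LL highest on both axes (6.61 and 7.69) and tumor 13 lowest (4.02 and 3.47).

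Cell type markers also differed between the groups. In ADU-S100-treated against HBSS-treated tumors 4 of 8 T and NK cell markers, 4 of 5 skeletal muscle markers and 3 of 5 neutrophil markers rose, and of 6 macrophage and monocyte markers 2 rose (Ly6c2 and Cd68) and 2 fell (Csf1r and Mrc1). Of all tested genes 6.19% passed there, and 23.9% were at an unadjusted p under 0.05 by edgeR. Of 4 endothelial and 5 fibroblast markers 0 passed edgeR's test, and 0 were at an unadjusted p under 0.05. In the other 5 comparisons 0 markers of these lists passed edgeR's test, although for the combination against HBSS 7 T and NK cell, 5 skeletal muscle, 3 neutrophil, 4 macrophage and monocyte and 3 fibroblast markers were at an unadjusted p under 0.05. Of all tested genes 18.2% were. All tested T and NK cell, skeletal muscle and neutrophil markers had log2 fold changes above 0 there. All fibroblast markers were below 0, and macrophage and monocyte markers went both ways. Of 5 epithelial and prostate markers tested for the combination against HBSS, 3 were at an unadjusted p under 0.05 by edgeR. Their log2 fold changes also went both ways, from -3.45 to 3.39, and these genes were low in most tumors. None of them passed edgeR's test in any comparison. The summed level of 8 T and NK cell markers ranged from 116 to 1751 CPM of the library total in combination-treated tumors, from 93.3 to 134 in ADU-S100-treated, from 32.5 to 158 in cyto-IL-15-treated and from 30.4 to 55.1 in HBSS-treated tumors, with no marker at 0 throughout a group. For 5 skeletal muscle markers the ranges were 34.7 to 3694, 131 to 1428, 2.02 to 671 and 2.27 to 3.15 CPM in the same order of groups. Their part in the level of Xaf1 was not tested.

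Xiap encodes the X-linked inhibitor of apoptosis and lies at chrX:42059679-42109656 on the plus strand. Its levels were 108, 88.5 and 87.9 CPM in the combination tumors 20L, 22 and 28LL, 76.7, 107 and 118 CPM in the ADU-S100 tumors 17LL, 18R and 22LR, 127, 87.1 and 113 CPM in the cyto-IL-15 tumors 9R, 13 and 20LL, and 126, 143 and 123 CPM in the HBSS tumors 19, 22R and 22LL. Every tumor given ADU-S100 or the combination was below every HBSS tumor, and the cyto-IL-15 tumors overlapped with all groups. The log2 fold change against HBSS was -0.44 in the combination group (standard error 0.14, unadjusted p = 0.0199, adjusted p = 0.219 by edgeR), -0.37 in the ADU-S100 group (0.15, unadjusted p = 0.0365, adjusted p = 0.177) and -0.24 in the cyto-IL-15 group (0.17, adjusted p = 0.898). None passed the test, and the 3 values share the HBSS tumors.

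Groups that did not overlap were common between these treatments. Between ADU-S100-treated and HBSS-treated tumors they occurred in 3 of the 7 genes (Xaf1 higher, Xiap and Casp9 lower) and in 31.2% of all tested genes. Between combination-treated and HBSS-treated tumors they occurred in 2 of the 7 (Xaf1 higher, Xiap lower) and in 30.3% of all tested genes.

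As XAF1 is described as acting on XIAP, their RNA levels were also set side by side per length, in TPM (a per-length share of transcripts) computed from the gene lengths in the files. Xaf1 stood at 0.652, 1.18 and 2.19 times Xiap in the combination tumors 20L, 22 and 28LL and at 2.14, 1.27 and 1.504 times in the ADU-S100 tumors 17LL, 18R and 22LR, against 0.314, 0.358 and 0.296 times in the cyto-IL-15 tumors 9R, 13 and 20LL and 0.326, 0.229 and 0.309 times in the HBSS tumors 19, 22R and 22LL. Xaf1 RNA was thus below Xiap RNA in all 6 tumors without ADU-S100 and in tumor 20L, and above it in the other 5. The ratio repeats the values of both genes and was not tested.

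Birc2 encodes cIAP1 and lies at chr9:7818227-7837064 on the minus strand, next to its paralog Birc3. Its levels were 56.3, 53.2 and 44.9 CPM in the combination tumors 20L, 22 and 28LL, 62.8, 62.9 and 72.6 CPM in the ADU-S100 tumors 17LL, 18R and 22LR, 54.0, 24.1 and 44.9 CPM in the cyto-IL-15 tumors 9R, 13 and 20LL, and 46.9, 61.1 and 78.5 CPM in the HBSS tumors 19, 22R and 22LL. Tumor 13 was the lowest of all 12, and the HBSS tumors alone spread over much of the range of the other groups. ADU-S100 tumors lay above cyto-IL-15 tumors without overlap (log2 fold change 0.66, standard error 0.29, adjusted p = 0.615 by edgeR) and above combination tumors without overlap (combination against ADU-S100 -0.35, standard error 0.15, adjusted p = 0.884 by edgeR). Neither difference passed the test. Birc2 was the only one of the 7 without overlap between combination and ADU-S100 tumors, which held for 10.8% of all tested genes. Against HBSS the log2 fold change was -0.25 in the combination (standard error 0.21), 0.10 in the ADU-S100 (0.18) and -0.58 in the cyto-IL-15 group (0.34).

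Some genes near Birc2 were also lowest in tumor 13 and most were not, a look at the region that was taken after the values were seen. Tumor 13 was lowest for Xaf1 and Casp8 as well, which lie on other chromosomes. The share of all genes that were lowest in this tumor was not counted. Of 14 genes whose left ends lie within 500 kb of that of Birc2, Birc2 included, and that reached 1 CPM of the library total in a tumor, tumor 13 was lowest in 4 (Birc2, Birc3, Tmem123 and Mmp10), highest in 3 (Yap1, Gm20416 and Gm45494) and within the range of the other tumors in 7. Birc3, which encodes the paralog cIAP2, had 18.5 CPM in tumor 13 and 68.7 to 89.6 CPM in the other 11 tumors, and Tmem123, a membrane protein gene, had 96.0 CPM in tumor 13 and 141 to 257 CPM in the others. Yap1, a transcriptional coactivator gene on the far side of Birc3, had 36334 CPM in tumor 13, while HBSS tumor 22LL had 5079 CPM, combination tumor 28LL had 1144 CPM and the other 9 had 97.6 to 145 CPM. Tumor 22LL, second in Yap1, held the highest level of Birc2, and tumor 28LL, next in Yap1, held the lowest Birc2 level of the combination group (44.9 CPM). The part of this region in the Birc2 values was not tested.

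**Figure D3:**
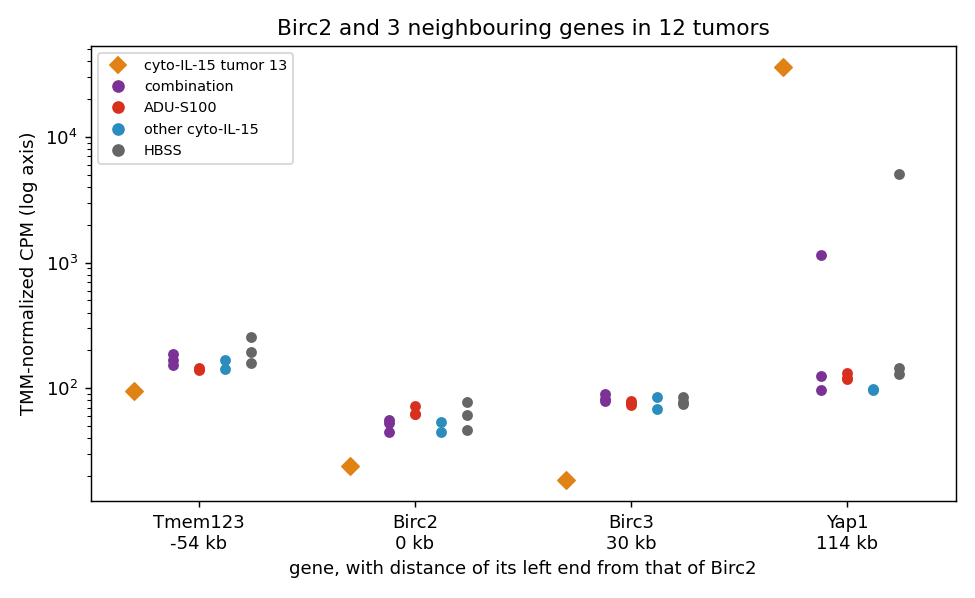
TMM-normalized CPM (vertical log axis) of Birc2 and 3 neighbouring genes on its chromosome in the 12 tumors, with the distance in kb of each gene's left end from that of Birc2. The diamond, cyto-IL-15 tumor 13, lies below all circles for Tmem123, Birc2 and Birc3 and above them for Yap1, at 36334 CPM.

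Diablo, the gene of the mitochondrial IAP antagonist, lies at chr5:123509765-123525488 on the minus strand. Annotated genes on the opposite strand (B3gnt4 and AC157931.1) overlap 20.9% of its exon bases, and as the strand setting of the counting is not given in the sources used here, its counts are uncertain to that extent. It had 45.1, 46.6 and 37.6 CPM in the combination tumors 20L, 22 and 28LL, 44.1, 45.98 and 40.7 CPM in the ADU-S100 tumors 17LL, 18R and 22LR, 39.2, 42.0 and 41.8 CPM in the cyto-IL-15 tumors 9R, 13 and 20LL, and 44.6, 46.9 and 39.4 CPM in the HBSS tumors 19, 22R and 22LL. All 4 groups overlapped, and its highest level was 1.25 times its lowest, against 6.18 times for Xaf1 and 1.81 to 3.25 times for the other 5 genes. Its log2 fold change lay between -0.072 and 0.080 in the 6 comparisons, with standard errors of 0.11 to 0.18.

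Casp8, the initiator caspase of death receptors, lies at chr1:58795374-58847503 on the plus strand. Its levels were 160, 134 and 134 CPM in the combination tumors 20L, 22 and 28LL, 187, 149 and 142 CPM in the ADU-S100 tumors 17LL, 18R and 22LR, 135, 83.9 and 137 CPM in the cyto-IL-15 tumors 9R, 13 and 20LL, and 128, 150 and 121 CPM in the HBSS tumors 19, 22R and 22LL. Tumor 17LL was highest and tumor 13 lowest. The log2 fold change in ADU-S100-treated tumors was 0.29 against HBSS (standard error 0.15, adjusted p = 0.282 by edgeR), with overlap, and 0.40 against cyto-IL-15 (standard error 0.24, adjusted p = 0.644 by edgeR), without overlap. ADU-S100 against cyto-IL-15 separated 3 of the 7 genes (Xaf1, Birc2 and Casp8, all higher) and 16.7% of all tested genes. Combination-treated tumors averaged 143 ± 15.3 CPM, against 133 ± 14.97 CPM in HBSS-treated tumors (SD, n = 3 each).

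Casp9, the initiator caspase of the apoptosome, lies at chr4:141793612-141815976 on the plus strand, and genes of the opposite strand overlap 1.81% of its exon bases. It had 21.1, 25.1 and 27.3 CPM in the combination tumors 20L, 22 and 28LL, 15.1, 23.3 and 22.0 CPM in the ADU-S100 tumors 17LL, 18R and 22LR, 22.8, 20.8 and 26.4 CPM in the cyto-IL-15 tumors 9R, 13 and 20LL, and 24.5, 24.98 and 23.98 CPM in the HBSS tumors 19, 22R and 22LL. The ADU-S100 tumors lay below the HBSS tumors without overlap, with 17LL far below the other 2, and the HBSS tumors were close to each other. The log2 fold change of -0.27 (standard error 0.16) in that comparison did not pass the test (adjusted p = 0.328 by edgeR). In tumor 17LL the initiators moved apart, with Casp8 at 22.3 times Casp9 in TPM, against 7.25 to 13.7 times in the other 11 tumors.

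Casp6, the caspase that cleaves the nuclear lamina protein lamin A, lies at chr3:129901425-129914103 on the plus strand. It had 65.8, 58.3 and 23.6 CPM in the combination tumors 20L, 22 and 28LL, 58.2, 61.7 and 66.8 CPM in the ADU-S100 tumors 17LL, 18R and 22LR, 67.0, 53.4 and 52.8 CPM in the cyto-IL-15 tumors 9R, 13 and 20LL, and 55.8, 67.4 and 58.2 CPM in the HBSS tumors 19, 22R and 22LL. The groups overlapped, and tumor 28LL was below all 11 others. The log2 fold change of the combination against HBSS was -0.27 (standard error 0.37, adjusted p = 0.695 by edgeR), and it was 0.062 without tumor 28LL. Between cyto-IL-15-treated and HBSS-treated tumors no gene of the 7 was free of overlap, against 10.6% of all tested genes. All 7 log2 fold changes were below 0, from -0.58 for Birc2 to -0.045 for Casp6, against a median of 0.040 over all tested genes. None passed the test, and the share of all genes below 0 was not counted. The signs of Casp6, Casp8 and Casp9 turned in some of the fits that left out a tumor.

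**Figure D4:**
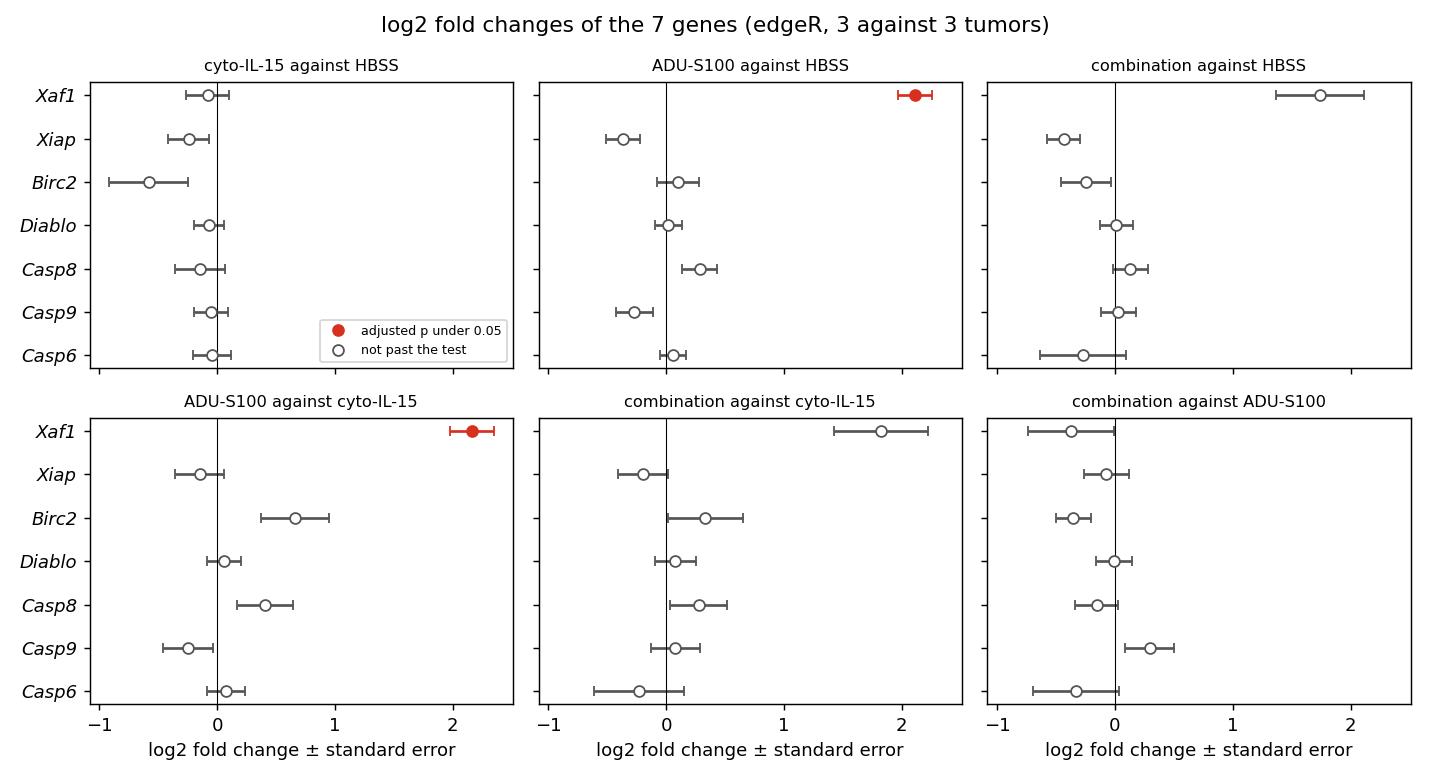
log2 fold changes with standard errors (horizontal axes) of the 7 genes in 6 comparisons of 3 against 3 tumors, with filled red points for genes at an adjusted p under 0.05 and open points for the rest. Only Xaf1 is filled, at 2.11 for ADU-S100 against HBSS and 2.16 for ADU-S100 against cyto-IL-15, and its points for the combination, at 1.74 and 1.82, are open with longer error bars.

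Compared per length, the order of the 7 RNA levels differed between treatments mainly in the place of Xaf1. In ADU-S100-treated tumors Casp8 was highest at 167 ± 22.1 TPM (SD, n = 3), and Xaf1, at 52.1 ± 7.37 TPM, came next. Its spread partly overlapped that of Birc2 (43.8 ± 4.56 TPM), which was lower. Casp6, Xiap, Diablo and Casp9 followed, down to 11.8 ± 2.76 TPM. In combination-treated tumors Xaf1 was also second, at 37.1 ± 16.7 TPM, a spread that reached from Diablo to above Birc2, and in cyto-IL-15-treated tumors it was last, at 11.9 ± 2.49 TPM. In HBSS-treated tumors Casp8 was at 142 ± 17.5 TPM. Xiap (43.6 ± 4.70 TPM), Birc2 (42.5 ± 13.7 TPM) and Casp6 (33.5 ± 4.61 TPM) followed there, and the spread of Birc2 overlapped those of Xiap and Casp6, while Casp8 above them and Diablo below them lay apart by more than their spread. Diablo (19.4 ± 1.45 TPM), Casp9 (14.6 ± 0.965 TPM) and Xaf1 (12.4 ± 1.27 TPM) were lowest, and the spreads of Casp9 and Xaf1 touched.

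The other genes of the pathway were taken from 6 lists, which held 46 genes, 44 of them tested in ADU-S100-treated against HBSS-treated tumors. Of these 8 rose and 1 fell (20.5%, against 6.19% of all tested genes). Of 4 other caspases 3 rose, all of the inflammatory type: Casp4, which senses lipopolysaccharide in the cytosol (log2 fold change 1.07, standard error 0.15, adjusted p = 0.00636 by edgeR), Casp1, the inflammasome caspase (0.88, standard error 0.16, adjusted p = 0.0172), and Casp12 (0.61, standard error 0.13, adjusted p = 0.0284). Over the 4 the median was 0.75 on the log2 scale.

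Among death receptor genes 4 of 10 rose: Fasl, the ligand of Fas (log2 fold change 1.47, standard error 0.25), Tnf, the inflammatory cytokine (1.42, 0.25), Fas, the receptor (0.97, 0.17), and Tnfsf10, which encodes the ligand TRAIL (0.93, 0.21), with adjusted p of 0.0130, 0.0151, 0.0176 and 0.0370 by edgeR. The list had a median of 0.17. Cflar, which encodes the inhibitor of Casp8 activation at these receptors, did not pass (-0.13, standard error 0.16, adjusted p = 0.649 by edgeR). In the apoptosome list 1 of 6 rose, the pore-forming Bax (0.81, standard error 0.13, adjusted p = 0.0116 by edgeR), the median was 0.23, and Apaf1 did not pass (-0.41, standard error 0.16, adjusted p = 0.166 by edgeR). Of 7 other IAP genes 1 fell, Birc6 (-0.51, standard error 0.11, adjusted p = 0.0305 by edgeR), which encodes a very large IAP with ubiquitin-conjugating activity. Birc3 did not pass (-0.038, standard error 0.10, adjusted p = 0.854 by edgeR), and the median of the list was -0.038. Of 7 IAP antagonists and partners (median -0.080) and 10 caspase substrates and effectors (median 0.019), 0 passed edgeR's test, with 1 and 3 genes at an unadjusted p under 0.05. Of the 9 pathway genes past the test, 3 (Casp4, Bax and Tnf) passed without any 1 of the 6 tumors.

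In the other 5 comparisons 0 of the 44 tested genes passed edgeR's test, with 14 genes at an unadjusted p under 0.05 for the combination against HBSS (18.2% of all tested genes were) and 2 to 8 in the other 4 (3.8% to 7.85% of all), while DESeq2 called 5 genes for the combination against HBSS and 0 or 1 in the others. In combination-treated against HBSS-treated tumors the median log2 fold change was 0.45 for other caspases, 0.17 for other IAP genes, -0.020 for IAP antagonists and partners, 0.62 for the apoptosome, 0.36 for the death receptor complex and 0.097 for substrates and effectors, against 0.0092 over all tested genes. Over the 12 tumors, the genes most like the rest of the set were Zfyve26 for Xiap (Pearson's r = 0.966, with Prr14l and Gabpb2 next), Qpct for Birc2 (0.941, then Cabp1 and Thbs2), Gdpd1 for Casp6 (0.981, then Tmem98 and Plxnb1), Ptges3l for Casp8 (0.956, then Hdhd3 and Hoxd10), Rab43 for Casp9 (0.940, then Glyr1 and AU040320) and Dctn2 for Diablo (0.895, then Fam207a and Rxylt1). No interferon-stimulated gene of the fixed list was among them. Tumors 13 and 28LL, which hold the lowest level of 5 of the 7 genes between them, weigh on these coefficients, which were taken over the same 12 libraries and are given as a description.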

How the data were processed

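RNA sequencing was performed on 12 TRAMP-C2 tumors, 3 per group. The deposited files hold raw counts of reads per Ensembl gene and tumor, which the authors made, per the labels, with bcl2fastq 2.20, Trimmomatic 0.36, STAR 2.5.2b and featureCounts (Subread 1.5.2) on GRCm38/mm10. The strand setting and the annotation release are not given in the sources used here. Symbols and overlaps were taken from GENCODE M21 and promoters from RefSeq (GRCm38.p6).

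Counts were tested in R 4.3.3 with edgeR 4.0.16 (TMM, filterByExpr with a minimum count of 10 and total of 15, robust quasi-likelihood F test, Benjamini-Hochberg adjustment), each comparison on its own 6 tumors and the interaction on 12. The study also asked for an absolute log2 fold change above 1, which was an alternative here. Others were DESeq2 1.42.0, RLE size factors, library totals, no filter, fits of 12 and of 10 tumors and leaving out each tumor. Scripts were tested on simulated data. TPM used the lengths in the files, and 0.5 CPM was added before log2 for likeness.

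The 7 genes, the 14 other lists and the alternatives were chosen with earlier results of these data known. Genes named are the 7, up to 4 genes per list past the test with the smallest p (all of them in the 6 pathway lists), Apaf1, Birc3 and Cflar, and the 5 or 3 genes most like each. Motif, shared-run and neighbour genes were chosen after values were seen. A few genes first placed in the caspase and epithelial lists are not reported here and were left out of all list counts.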

Additional observations from a re-analysis of the deposited data

How the results depend on the processing

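Each group held 3 tumors, which limits every fit, and leaving out tumor 13 or 28LL moved several counts of calls. No paired analysis was possible because the replicate numbers follow only the order of the samples, and of the numbers in the tumor names, whose meaning the labels do not give, no pair of groups shares more than 1. Scaling moved the median log2 fold change of all genes by at most 0.064. Over all genes, counts past the test were, by DESeq2, 117 for cyto-IL-15 against HBSS, 2289 for ADU-S100 against HBSS, 1392 for the combination against HBSS, 280 for ADU-S100 against cyto-IL-15, 111 for the combination against cyto-IL-15 and 4 for the combination against ADU-S100 (edgeR 0, 1170, 0, 16, 0 and 0). With no filter on low counts the first 4 were 1, 2171, 14 and 73. In 1 fit of 10 tumors without 13 and 28LL they were 32 for cyto-IL-15 and 491 for the combination against HBSS, and 303 for ADU-S100 and 58 for the combination against cyto-IL-15. In 1 fit of 12 tumors, ADU-S100 gave 0 against HBSS and 4 against cyto-IL-15. ADU-S100 against cyto-IL-15 gave 6 with RLE size factors and 4 with library totals, and ADU-S100 against HBSS gave 667 with an absolute log2 fold change above 1 in addition. Leaving out 1 tumor gave 0 to 184 (without tumor 13) for cyto-IL-15 against HBSS, 415 to 1045 for ADU-S100 against HBSS, 0 to 407 (without tumor 28LL) for the combination against HBSS and 0 to 213 (without tumor 13) for ADU-S100 against cyto-IL-15.

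Of the 7 genes only the call of Xaf1 moved. ADU-S100 against HBSS gave 0 genes instead of 1 in the fit of 12 tumors (adjusted p = 0.0849 by edgeR). ADU-S100 against cyto-IL-15 gave 0 instead of 1 with library totals (adjusted p = 0.0583 by edgeR) and in the fit of 12 tumors (0.0800), and 0 to 1 when 1 tumor was left out. The combination against HBSS gave 1 instead of 0 by DESeq2, in the fit of 10 tumors (log2 fold change 1.23, adjusted p = 0.00953 by edgeR) and without tumor 28LL, 0 to 1 over the tumors left out. The combination against cyto-IL-15 gave 1 instead of 0 by DESeq2 and in the fit of 10 tumors (1.25, adjusted p = 0.0456 by edgeR). The log2 fold change of Xaf1 kept its sign in every setting.

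Signs turned only for log2 fold changes that passed in no setting. In the fit of 10 tumors they were 0.039 for Casp8 and 0.013 for Casp9 (cyto-IL-15 against HBSS), 0.050 for Casp6 and -0.074 for Casp9 (combination against HBSS), 0.054 for Casp6 and -0.088 for Casp9 (combination against cyto-IL-15), 0.0041 for Casp6 and 0.080 for Diablo (combination against ADU-S100) and 0.0087 for Casp6 (interaction). Diablo gave -0.0050 by DESeq2 and -0.0062 with RLE size factors for ADU-S100 against HBSS, and -0.0022 by DESeq2, -0.0090 with no filter and -0.00021 in the fit of 12 tumors for the combination against HBSS. Casp8 gave 0.0077 by DESeq2, 0.0067 with RLE size factors and 0.0048 with no filter for the interaction. Leaving out 1 tumor gave, for cyto-IL-15 against HBSS, -0.18 to 0.029 for Casp6, -0.26 to 0.047 for Casp8 and -0.14 to 0.021 for Casp9, and for ADU-S100 against HBSS, -0.062 to 0.31 for Birc2, -0.0034 to 0.12 for Casp6 and -0.047 to 0.055 for Diablo. For the combination against HBSS it gave -0.55 to 0.062 for Casp6, -0.062 to 0.11 for Casp9 and -0.065 to 0.096 for Diablo, against cyto-IL-15 -0.47 to 0.10 for Casp6 and -0.018 to 0.20 for Casp9, and against ADU-S100 -0.22 to 0.040 for Xiap, -0.61 to 0.0048 for Casp6 and -0.072 to 0.080 for Diablo. ADU-S100 against cyto-IL-15 gave -0.26 to 0.023 for Xiap. The interaction gave -0.019 to 0.49 for Birc2, -0.54 to 0.048 for Casp6 and -0.18 to 0.14 for Casp8. The causes of these shifts were not tested.

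For list genes past the test, a check added after the data were seen, 237 log2 fold changes stayed past it over all settings, 99 did not and 0 changed sign.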
